A study of Homo sapiens with 6 samples.

Results

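The genes described here are 8 mitotic kinases that lie outside the Aurora, Polo and checkpoint families: NEK2, NEK6, NEK7, NEK9, MELK, PBK, MASTL and VRK1. They were chosen by name, with earlier results of these data known. Every probe set that the platform's gene table assigns to exactly 1 of them was used. This gave 21 of the 44988 single-gene probe sets on the array, for 8 of the 18132 genes measured. NEK2 had 7 probe sets, NEK6 had 4, NEK7 and NEK9 had 3 each, and MELK, PBK, MASTL and VRK1 had 1 each.

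Expression was measured on Affymetrix PrimeView arrays in 2 groups of 3 samples. One group was given AAPK, a compound known here only by this code, which the series title describes as a dual inhibitor of Aurora A and PLK-1. The other was given the vehicle DMSO. All 6 samples carry the cell line name HCT-116, an established human colorectal carcinoma line, a note of high Aurora-A and PLK-1 expression, and a treatment field that reads 10 µM and 48 h. That field does not separate the groups, so the 10 µM is taken as the dose of AAPK. Whether a group's 3 samples were grown separately is not stated in the labels. The p-values below therefore rest on the variation among these arrays, part or all of which may be technical.

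Values are log2 signals, and they ran from 2.83 to 14.25 over the 6 arrays. Array medians were 6.46 to 6.47 in AAPK and 6.48 to 6.50 in DMSO, so changes are relative to the bulk of the genes. The labelled cell type was checked against its markers. KRT8 and KRT18, keratins of simple epithelia, stood between the 97.8th and the 99.7th percentile of mean signal. EPCAM, a surface protein typical of colorectal carcinoma cells, read 3.20 to 3.52 on its 3 probe sets over all arrays, at the 1.81st to the 2.41st percentile. CDH1 (E-cadherin) read 3.96 to 5.15 on 2 probe sets and KRT19 read 4.94 to 5.07, at the 22.8th percentile. Of the claudins of epithelial junctions, CLDN3 and CLDN7 stood at the 21.8th and the 40.6th percentile, while CLDN4 ran from the 21.2nd to the 89.8th over its 3 probe sets. VIM, the mesenchymal filament gene vimentin, chosen after its values were seen, read 12.12 to 12.59. The readings of EPCAM, CDH1, KRT19 and CLDN3 go against the label in both groups. CLDN7 and the other CLDN4 sets, at the 21.2nd and the 55.7th percentile, were low or in the middle, and VIM was near the top. The readings of KRT8, KRT18 and 1 CLDN4 probe set do not go against the label. The samples are therefore called the cells labelled HCT-116. Of the 8 epithelial markers, KRT8 alone passed between the groups, with a rise of 0.17 (limma adjusted p = 0.0402) that was lost when any array other than AAPK replicate 3 was left out. Of 17 measured fibroblast, endothelial and blood cell markers, 0 passed the test between the groups (limma, with unadjusted p under 0.05 for VWF and LYZ).

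These kinases act at different steps of mitotic entry and exit. NEK2 sits at the centrosome and phosphorylates the linker that holds the centriole pairs together, so that they can part. NEK9 is switched on in mitosis by CDK1 and PLK1 and in turn activates NEK6 and NEK7, which phosphorylate the kinesin KIF11 during spindle assembly. MASTL, also called Greatwall, phosphorylates ENSA and ARPP19, and these then inhibit the phosphatase PP2A bound to its B55 subunit, which would otherwise reverse CDK1 phosphorylation. VRK1 phosphorylates BANF1, the factor that ties chromatin to the nuclear envelope. MELK and PBK are kinases whose levels are high in dividing cells and peak around mitosis.

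The kinase genes moved in both directions. NEK2, NEK6, PBK and VRK1 rose in AAPK, MASTL and MELK fell, and NEK7 and NEK9 did not pass the test. With 1 probe set a gene (the one with the highest mean signal), 4 of the 8 rose and 2 fell (limma, adjusted p threshold 0.05), where 8.11% of all 18132 genes rose and 7.26% fell, 15.4% in all. Their median log2 change, AAPK minus DMSO, was 0.13, against -0.02 over all genes, and the changes ran from -0.55 for MASTL to 0.41 for NEK2. Signal from a whole culture does not tell more cells in mitosis from more transcript in each cell. Fitted over all probe sets, 9 of the 21 rose, 1 fell and 11 did not pass, where 7.13% of all probe sets rose and 5.82% fell, 12.9% in all. The AAPK and DMSO arrays did not overlap for 6 of the 8 genes, compared with 31.9% of all genes, and for 11 of the 21 probe sets, compared with 29.6% of all probe sets.

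**Figure D1:**
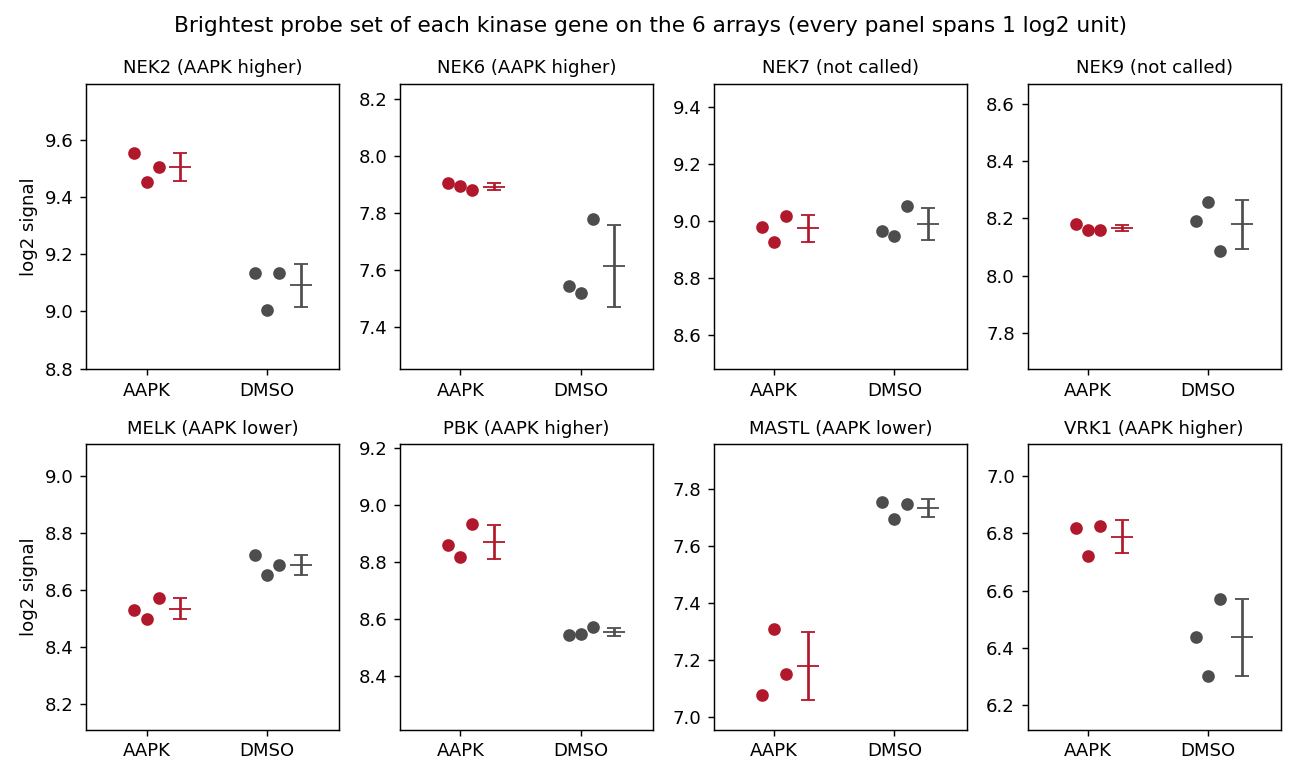
Log2 signal of the brightest probe set of each of the 8 kinase genes, with 1 point for each array (AAPK red, DMSO grey) and a bar for the mean and SD of 3 arrays. The AAPK points lie above the DMSO points for NEK2, NEK6, PBK and VRK1 and below them for MELK and MASTL, and they overlap for NEK7 and NEK9.

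**Figure D2:**
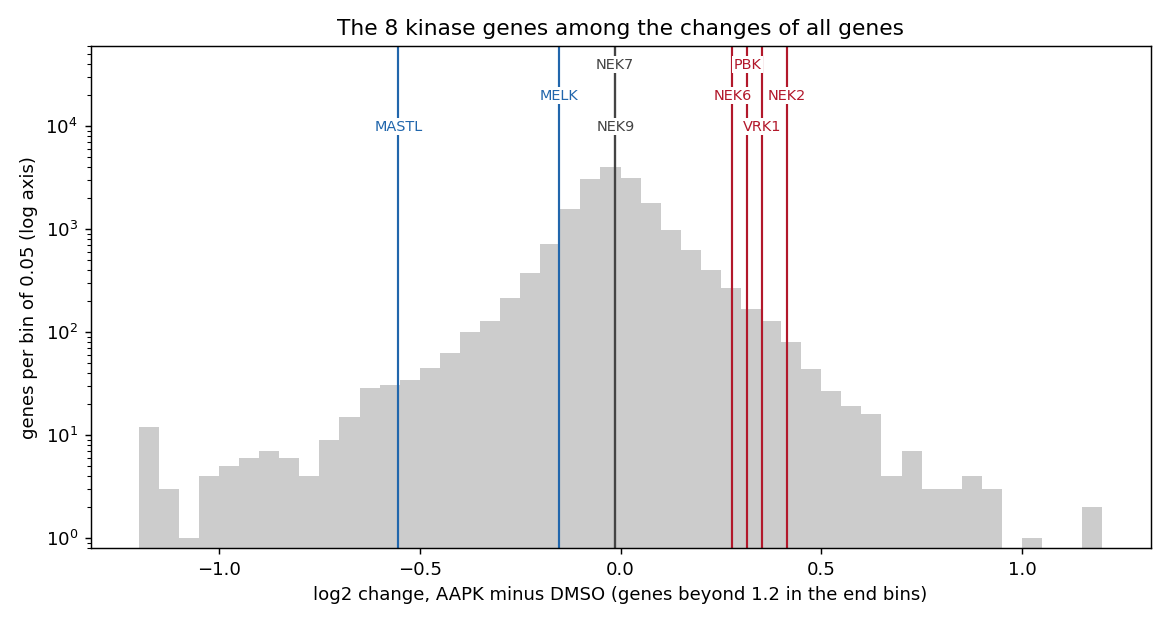
Number of genes, on a log axis, by log2 change (AAPK minus DMSO) in bins of 0.05 for all 18132 genes, with lines at the 8 kinase genes (red higher, blue lower, dark grey not called). MASTL at -0.55 and NEK2 at 0.41 lie in the sparse flanks, while NEK7 and NEK9 stand in the central peak at -0.01.

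NEK2, the centrosome-separating kinase, rose most. Its brightest probe set, 11722252_x_at, read 9.55, 9.45 and 9.51 on the AAPK arrays, against 9.13, 9.01 and 9.14 on the DMSO arrays. All AAPK arrays lay above all DMSO arrays, a rise of 1.33-fold (0.41 ± 0.05 on the log2 scale, estimate and SE from 3 arrays a group, with a limma adjusted p of 0.000511 over all genes). Only 2.45% of genes had a larger change in size.

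Of its 6 other probe sets, 5 rose as well. The set 11722253_a_at read 8.54, 8.66 and 8.54 in AAPK and 8.02, 7.96 and 7.99 in DMSO (log2 change 0.59). The set 11753780_x_at read 8.44, 8.57 and 8.39 in AAPK and 7.93, 7.80 and 7.90 in DMSO (0.59). On both, the gap between the groups was several times the spread within them. The set 11722251_a_at read 8.47, 8.38 and 8.55 in AAPK and 7.94, 7.89 and 8.21 in DMSO (0.45), and 11749814_s_at read 7.91, 7.96 and 8.02 in AAPK and 7.61, 7.42 and 7.54 in DMSO (0.44). The set 11749813_a_at read 8.20, 8.19 and 8.40 in AAPK and 8.04, 7.82 and 8.08 in DMSO (0.29). The groups did not overlap on any of these 5 sets. The limma adjusted p over all probe sets ran from 7.74e-05 on 11722253_a_at to 0.0407 on 11749813_a_at. The call on 11749813_a_at was lost when AAPK replicate 1, 2 or 3 or DMSO replicate 1 or 2 was left out (limma adjusted p = 0.0639, 0.0558, 0.120, 0.0671 and 0.122).

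The seventh NEK2 probe set, 11761821_at, did not pass. It read 3.63, 3.78 and 3.73 in AAPK and 3.69, 3.71 and 3.68 in DMSO, and the groups overlapped (log2 change 0.02, 95% interval -0.10 to 0.14). Its mean signal was at the 5.80th percentile of all probe sets, close to the floor of the array, so its difference from the other sets is not read as a result. Whether probe sets of 1 gene differed in their change was tested within arrays, across all pairs of another set and the brightest, of which 3.15% were called (1.59% upward and 1.56% downward). Of the 5 other NEK2 sets that rose, 0 passed this test (lowest limma adjusted p = 0.258, with unadjusted p under 0.05 for both sets at 0.59). The set 11761821_at near the floor was called, with a difference in change of -0.39 (limma adjusted p = 0.0367). That call was lost in 8 of 11 alternatives.

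**Figure D3:**
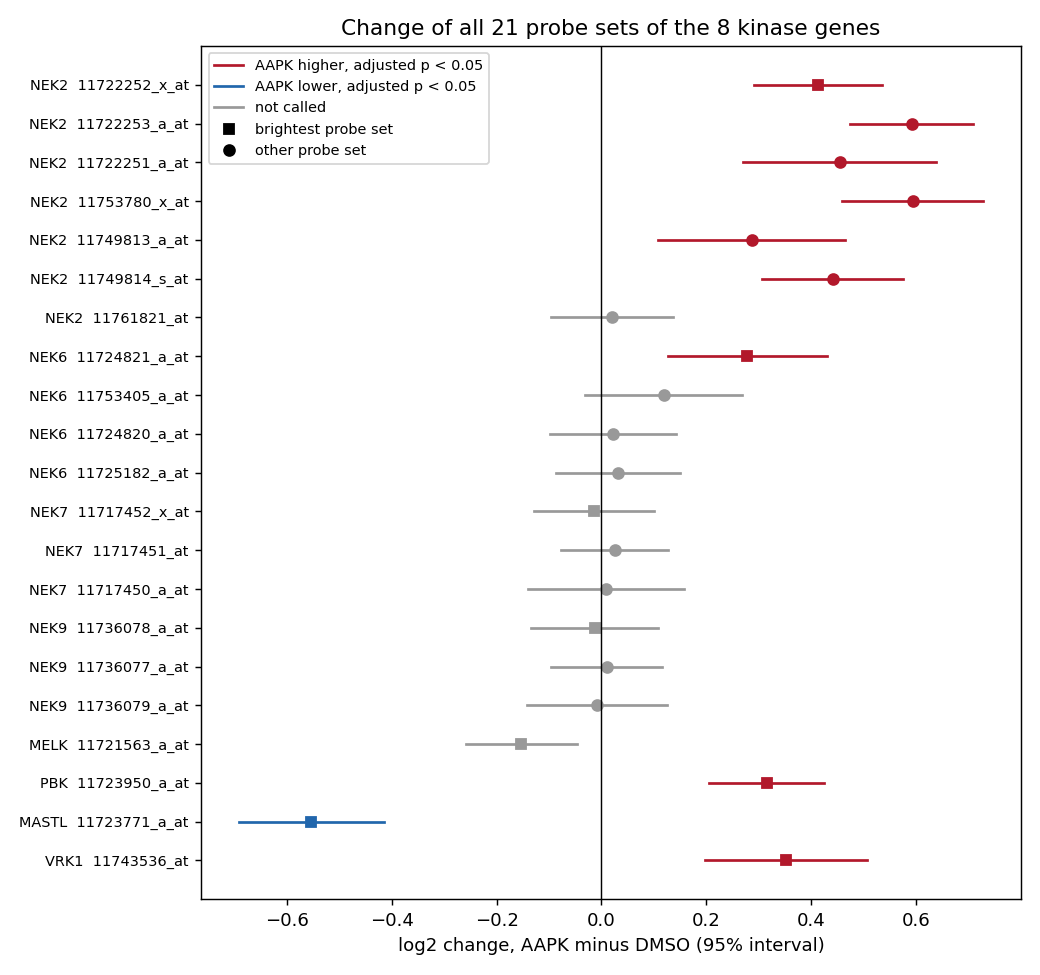
Log2 change (AAPK minus DMSO) with its 95% interval for all 21 probe sets of the 8 genes, red for higher, blue for lower and grey for not called over all probe sets. Of the 7 NEK2 sets, 6 lie between 0.29 and 0.59, 3 of the 4 NEK6 sets lie at 0.02 to 0.12, and all NEK7 and NEK9 sets lie within 0.03 of 0.

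The partners of NEK2 are given by the same brightest-set rule, to be read against the 8.11% of all genes that rose and the 7.26% that fell, as are the lists after them. Of 12 measured centrosome linker genes and NEK2 substrates or regulators, 2 rose, 2 fell and 8 did not pass, with a median log2 change of -0.05. NDC80, a kinetochore protein that NEK2 phosphorylates, rose by 0.38 (limma adjusted p = 0.000485), and CEP85, a centrosomal antagonist of NEK2, rose by 0.20, with -0.01 on its other probe set. CCDC102B and CEP68, both proteins of the linker, fell by 0.24 and 0.20 (limma adjusted p = 0.0452 and 0.0404). Over all probe sets, 0 of the 2 CCDC102B sets and 0 of the 5 CEP68 sets were called. CCDC102B was dim, at the 9.67th percentile of genes by mean signal. Both calls were lost with median centring (limma adjusted p = 0.0710 and 0.0662) and with the replicate block (limma adjusted p = 0.0989 and 0.0959). That on CCDC102B was also lost with quantile normalisation (limma adjusted p = 0.0875). The 5 probe sets of CEP68 ran up to 0.08, and their mean was at -0.09 and did not pass (limma adjusted p = 0.240). For CEP85 the mean of both sets was at 0.09 (limma adjusted p = 0.131). The main linker proteins CEP250 and CROCC were at -0.07 and 0.04 and did not pass. With 1 array left out, 0 or 1 of the list was lower, whichever array it was. Without AAPK replicate 1, AAPK replicate 3 or DMSO replicate 1 the number higher was 1, as the call on CEP85 was lost (limma adjusted p = 0.0611, 0.0548 and 0.0787).

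The NEK9 to NEK6 and NEK7 cascade changed at NEK6 alone among its 3 kinase genes, and there on 1 probe set. On its brightest set, 11724821_a_at, NEK6 read 7.91, 7.90 and 7.88 in AAPK and 7.55, 7.52 and 7.78 in DMSO. The AAPK arrays were tightly grouped and lay above all DMSO arrays, of which replicate 3 stood closest. The rise was 1.21-fold (0.28 ± 0.07 on the log2 scale, limma adjusted p = 0.0170). The other sets, 11753405_a_at, 11725182_a_at and 11724820_a_at, had changes of 0.12, 0.03 and 0.02, with overlapping groups, and did not pass. Their changes were not shown to differ from that of the brightest set (limma adjusted p = 0.574, 0.0767 and 0.0891). The mean of the 4 sets rose by 0.11 on the log2 scale and did not pass (limma adjusted p = 0.0896). The call on the gene was also lost without AAPK replicate 1 (0.27, limma adjusted p = 0.0560), AAPK replicate 2 (0.28, limma adjusted p = 0.0517), DMSO replicate 1 (0.24, limma adjusted p = 0.0715) or DMSO replicate 2 (0.23, limma adjusted p = 0.0598).

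NEK7, the close paralog of NEK6 that also takes part in the NLRP3 inflammasome, read 8.98, 8.92 and 9.02 in AAPK and 8.96, 8.95 and 9.05 in DMSO on 11717452_x_at. The groups overlapped, and the log2 change of -0.01 had a 95% interval of -0.12 to 0.09. Its other sets were at 0.03 and 0.01. NEK9, the upstream kinase, read 8.18, 8.16 and 8.16 in AAPK and 8.19, 8.26 and 8.09 in DMSO on 11736078_a_at. The groups overlapped here too (log2 change -0.01, 95% interval -0.13 to 0.10), and its other sets were at 0.01 and -0.01. These intervals leave out changes of the size seen for NEK2, but not small ones, and a missed threshold does not show that the levels were equal.

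Of 9 measured targets and partners of these 3 kinases, 4 rose, 1 fell and 4 did not pass, with a median of 0.15. DYNLL1, a dynein light chain that binds NEK9, rose by 0.50 (limma adjusted p = 3.74e-05), and TPX2, a spindle assembly factor, by 0.38. BICD2, a dynein adaptor, rose by 0.31, with -0.02 to 0.54 over its 6 sets, and TUBG1, γ-tubulin, by 0.25. The call on BICD2 was lost without AAPK replicate 2 (0.26, limma adjusted p = 0.0534). KIF11, the kinesin named above, was at 0.15 and missed the threshold (limma adjusted p = 0.0563). NEDD1, which recruits γ-tubulin to the centrosome, fell by 0.17 (limma adjusted p = 0.0484). All 4 of its probe sets were lower, from -0.46 to -0.17, and 2 of them passed over all probe sets; the mean of the sets fell by 0.26 (limma adjusted p = 0.00212). The call on the brightest set was lost without AAPK replicate 1 or 2 or DMSO replicate 1 or 3 (limma adjusted p = 0.133, 0.158, 0.131 and 0.143), and without AAPK replicate 3 the number lower was 2. On their brightest probe sets, NEK3, NEK4, NEK5, NEK8, NEK10 and NEK11, the 6 other NEK family genes measured, ran from -0.13 to 0.04 and none passed (limma, with unadjusted p under 0.05 for NEK11). NEK3 had 1 of its 3 sets called lower, with changes from -0.21 to -0.03.

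MASTL fell, with the largest change of the 8 genes by brightest probe set; both NEK2 sets at 0.59 changed by more in size. It read 7.08, 7.31 and 7.15 on the AAPK arrays, against 7.75, 7.69 and 7.75 on the DMSO arrays. The DMSO arrays were close together, the AAPK arrays more spread, and the groups lay far apart. The level was 1.47-fold lower in AAPK (-0.55 ± 0.06 on the log2 scale, estimate and SE from 3 arrays a group, with a limma adjusted p of 0.000206). Only 1.04% of genes had a larger change in size. With 1 array left out the change ran from -0.62 to -0.50 and stayed past the threshold each time.

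On their brightest probe sets, the genes that MASTL acts through were higher where they passed. Of 10 measured genes for ENSA, ARPP19 and the PP2A-B55 subunits, 5 rose, 0 fell and 5 did not pass, with a median of 0.18. PPP2R1B, a scaffold subunit, rose by 0.28 (limma adjusted p = 0.00584), and the B55 subunits PPP2R2A and PPP2R2B rose by 0.25 and 0.24. The call on PPP2R2A was lost without AAPK replicate 2 or DMSO replicate 1 (limma adjusted p = 0.0587 and 0.0723). That on PPP2R2B was lost without AAPK replicate 1 or 3 or DMSO replicate 1 (limma adjusted p = 0.0724, 0.0625 and 0.0785). The 4 sets of PPP2R1B ran from -0.03 to 0.48 and the 3 of PPP2R2B from -0.01 to 0.24. ARPP19, a MASTL substrate, rose by 0.20 (limma adjusted p = 0.0125), with 0.20 to 0.35 over its 3 probe sets, while ENSA, the other substrate, was at 0.01. The fifth was PPP2CB, a catalytic subunit, at 0.17, with 0 of its 3 sets called over all probe sets. Its call was lost without AAPK replicate 1, 2 or 3 or DMSO replicate 1 or 2 (limma adjusted p from 0.0697 to 0.150). PPP2CA, the other catalytic subunit, was at 0.02 on its brightest probe set, but 2 of its 3 sets were called lower over all probe sets. It passed as lower at -0.32 on its most variable set (limma adjusted p = 0.00549) and at -0.17 for the mean of its sets (limma adjusted p = 0.0187). Without AAPK replicate 1, 2 or 3 the number higher was 3, and without DMSO replicate 1 it was 2. With quantile normalisation the calls on ARPP19 (0.14, limma adjusted p = 0.0605) and PPP2CB (0.11, limma adjusted p = 0.166) were lost, and that on PPP2CB also for the mean of its sets (0.13, limma adjusted p = 0.0777).

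PBK, also called TOPK, a kinase of the mitogen-activated protein kinase kinase type, rose. It read 8.86, 8.82 and 8.93 in AAPK and 8.54, 8.55 and 8.57 in DMSO, so that the groups were well apart and the DMSO arrays nearly equal. The rise was 1.24-fold (0.32 ± 0.05 on the log2 scale, limma adjusted p = 0.00128). It held with any 1 array left out, at 0.28 to 0.34.

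MELK, the maternal embryonic leucine zipper kinase, was slightly lower. It read 8.53, 8.50 and 8.57 in AAPK and 8.72, 8.65 and 8.69 in DMSO, with no overlap between the groups. The change was -0.15 ± 0.04 SE, with a limma adjusted p of 0.0457 over the 18132 genes and of 0.0656 over the 44988 probe sets, so it passed over genes and missed over probe sets. It was lost whichever array was left out, with limma adjusted p from 0.0513 without AAPK replicate 3 to 0.168 without DMSO replicate 1, while the change kept its sign at -0.17 to -0.13. In all, the call was lost in 9 of 15 alternatives, median centring among them (-0.13, limma adjusted p = 0.0813).

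Of 10 measured targets and partners of MELK and PBK, 3 rose, 1 fell and 6 did not pass, with a median of 0.05. PRC1, a midzone microtubule bundler, rose by 0.37 (limma adjusted p = 0.000386), and 3 of its 4 sets were called higher. FOXM1, a transcription factor of G2/M genes, rose by 0.19, and PRDX1, a peroxiredoxin, by 0.17. Of the 3 FOXM1 sets, 1 was called over all probe sets. The FOXM1 call was lost without AAPK replicate 1 or 2 or DMSO replicate 1 or 2 (limma adjusted p = 0.119, 0.117, 0.129 and 0.110). That on PRDX1 was lost without AAPK replicate 1 or DMSO replicate 1, 2 or 3 (limma adjusted p = 0.0817, 0.0626, 0.0540 and 0.0528). RPS6KA5, the kinase MSK1, fell by 0.22 (limma adjusted p = 0.0352). Its 4 sets ran up to 0.03, and their mean was at -0.09 and did not pass (limma adjusted p = 0.260). Without AAPK replicate 1 or DMSO replicate 1 or 2 the number higher was 1. Without AAPK replicate 1, 2 or 3 or DMSO replicate 1 or 3 the number lower was 0.

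VRK1 rose. Its probe set, 11743536_at, read 6.82, 6.72 and 6.82 in AAPK and 6.44, 6.30 and 6.57 in DMSO. The DMSO arrays were the more scattered, and all lay below the AAPK arrays. The rise was 1.28-fold (0.35 ± 0.07 on the log2 scale, limma adjusted p = 0.00555), and it held with any 1 array left out, at 0.28 to 0.42. Its mean signal was at the 52.6th percentile of probe sets and at the 39.2nd percentile of genes by brightest set.

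Of 10 measured VRK family genes and VRK1 targets, 1 rose, 1 fell and 8 did not pass, close to the shares of all genes, with a median of -0.01. The paralogs VRK2 and VRK3 were at 0.06 and -0.02, although VRK2 fell by 0.28 on its most variable probe set (limma adjusted p = 0.0381) and 1 of the 4 VRK3 sets was called lower, at -0.18. BANF1 was at 0.14 and did not pass. COIL, the Cajal body protein coilin, rose by 0.30 (limma adjusted p = 0.0134), a call lost without AAPK replicate 2 or DMSO replicate 1 (limma adjusted p = 0.0533 and 0.0577), while without AAPK replicate 3 the number higher was 3. CREB1, a transcription factor that VRK1 can phosphorylate, fell by 0.86 (limma adjusted p = 2.88e-05). All 7 CREB1 probe sets were lower, from -0.86 to -0.26, and 6 of them passed.

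**Figure D4:**
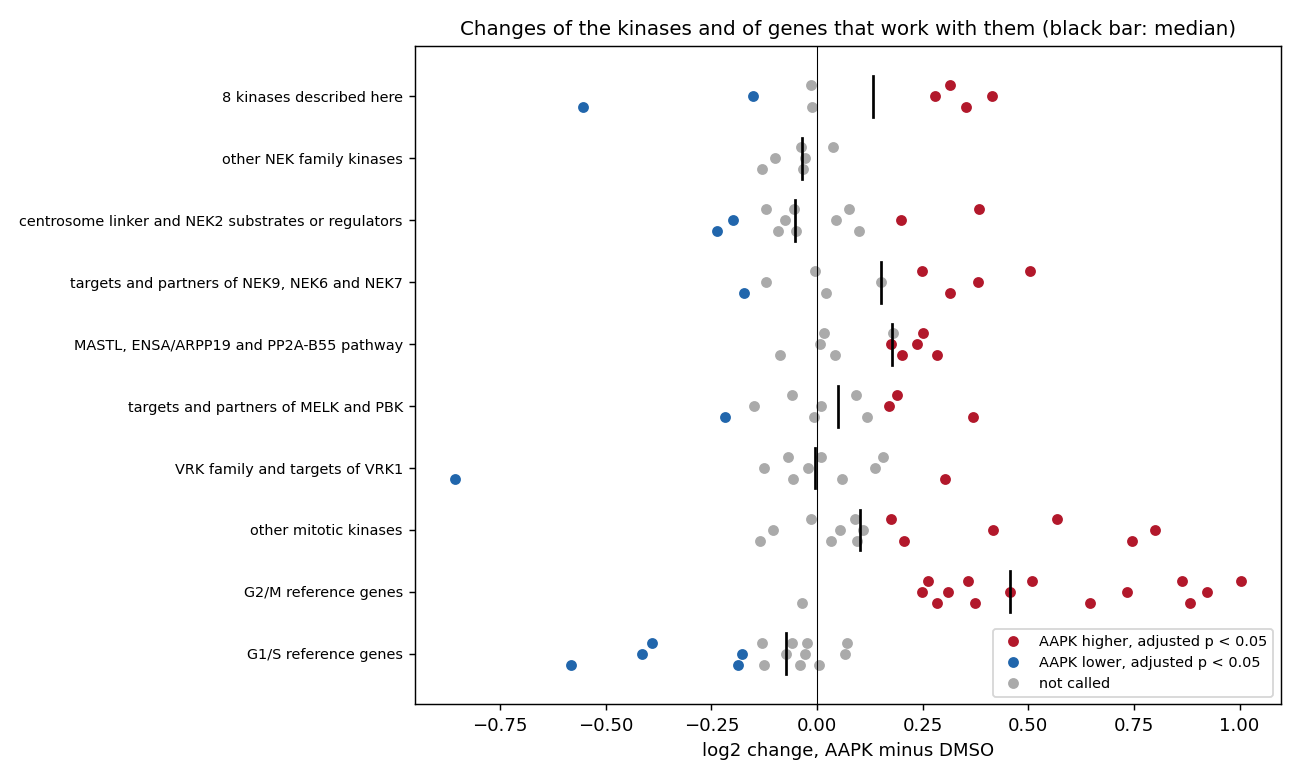
Log2 change (AAPK minus DMSO) of the 8 kinase genes and of 9 gene lists, with 1 point for each gene (red higher, blue lower, grey not called) and a black bar at the median of each row. The G2/M genes lie to the right with a median of 0.46, the G1/S genes mostly left of 0, and the 8 kinases span both sides.

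The 8 kinases were set beside other cell cycle genes, in lists also chosen with earlier results of these data known. Of 14 other mitotic kinases, 6 rose, 0 fell and 8 did not pass, with a median of 0.10. PKMYT1, an inhibitory kinase of CDK1, was at -0.14 (unadjusted p = 0.00845, limma adjusted p = 0.0537) and HASPIN also had an unadjusted p under 0.05; all 6 PKMYT1 probe sets were below 0, and it passed as lower in 6 alternatives, quantile normalisation among them (-0.20, limma adjusted p = 0.0103). AURKA rose by 0.80, BUB1 by 0.74, TTK, the checkpoint kinase MPS1, by 0.57 and BUB1B by 0.42. CDK1, also among the 6, rose by 0.17 (limma adjusted p = 0.0479), with 1 of its 3 sets called. Its call was lost whichever array was left out (limma adjusted p from 0.0586 to 0.145), so that the number higher was then 5. It was also lost with quantile normalisation (0.12, limma adjusted p = 0.179). Of 15 G2/M genes, 14 rose and 0 fell, with a median of 0.46. CKS2, a CDK-binding protein, rose most at 2.01-fold, followed by DLGAP5, CDC20 and CCNB1, cyclin B1, at 0.92, 0.88 and 0.86 on the log2 scale. CDC20 ran from 0.01 to 0.89 over its 3 sets. Of 15 G1/S genes, 0 rose, 5 fell and 10 did not pass, with a median of -0.07 (limma, with unadjusted p over 0.05 for all that were above 0). CDT1, a replication licensing factor, CCNE2, cyclin E2, RRM2, a ribonucleotide reductase subunit, and CDC6, another licensing factor, had changes of -0.58, -0.41, -0.39 and -0.19. The other set of RRM2 was at -0.01 and that of CDC6 at 0.04. The mean of both sets was at -0.20 for RRM2 (limma adjusted p = 0.00763) and at -0.07 for CDC6, where the call was lost (limma adjusted p = 0.247). Without AAPK replicate 1 or DMSO replicate 1 or 3 the number lower was 3. NEK2 at 0.41, VRK1 at 0.35 and PBK at 0.32 moved in the direction of the G2/M genes, and MASTL and MELK in the other. By brightest set these rises were under the G2/M median of 0.46. The NEK2 sets at 0.59 are not its brightest, so they are not set against this median of brightest sets.

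The genes closest in pattern were found for the 3 kinases with the largest changes, by the root mean square distance over the 6 arrays between values set against each gene's own DMSO mean. For MASTL, among 9065 genes above the median signal, they were LURAP1L (distance 0.05, log2 change -0.59) and ATF4, the amino acid stress transcription factor (distance 0.05, log2 change -0.55). For NEK2 they were NDUFB3, a subunit of respiratory complex I (distance 0.03, log2 change 0.39), and PLIN3, a lipid droplet coat protein (distance 0.03, log2 change 0.44). For VRK1, they were SHCBP1 (distance 0.03, log2 change 0.37) and the deubiquitinase gene YOD1 (distance 0.03, log2 change 0.35). These distances are descriptions of 6 arrays, on which any gene with a like change in AAPK comes close.

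Promoter windows were read for 5 of the 8 genes from RefSeq (build GRCh38.p14, 300 bases, from 250 before the start site to 50 after it). The sequences of NEK2, MASTL and MELK are shown because NEK2 and MASTL had the largest changes and MASTL and MELK, both known from dividing cells, fell. The first 260 bases of each are given 5′ to 3′ on the gene's own strand, and capitals mark motif matches. Motifs of cell cycle promoters were searched on both strands. The first was the cell cycle genes homology region, or CHR, in its form TTTGAA and in a further form, TTCGAA. Any other CHR form was not searched for. The second was the CCAAT box, the binding site of NF-Y, as CCAAT. The last was the core of an E2F site, in the common form TTCCCGC, in the form with a changed middle TTGGCGC, in the third form searched for, TTCGCGC, and in the remaining form searched for, TTGCCGC.
NEK2, chr1:211675612-211675871, minus strand: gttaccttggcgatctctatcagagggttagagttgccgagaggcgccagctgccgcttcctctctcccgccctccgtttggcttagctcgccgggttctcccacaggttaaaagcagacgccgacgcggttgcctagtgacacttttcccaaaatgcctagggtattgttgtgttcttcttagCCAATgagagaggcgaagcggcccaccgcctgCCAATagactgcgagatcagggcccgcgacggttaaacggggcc
MASTL, chr10:27155102-27155361, plus strand: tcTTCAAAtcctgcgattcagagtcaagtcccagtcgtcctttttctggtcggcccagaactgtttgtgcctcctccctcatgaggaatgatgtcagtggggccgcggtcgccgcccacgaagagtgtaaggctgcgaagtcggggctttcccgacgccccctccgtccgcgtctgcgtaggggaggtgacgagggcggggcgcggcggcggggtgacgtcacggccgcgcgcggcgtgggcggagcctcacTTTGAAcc
MELK, chr9:36572645-36572904, plus strand: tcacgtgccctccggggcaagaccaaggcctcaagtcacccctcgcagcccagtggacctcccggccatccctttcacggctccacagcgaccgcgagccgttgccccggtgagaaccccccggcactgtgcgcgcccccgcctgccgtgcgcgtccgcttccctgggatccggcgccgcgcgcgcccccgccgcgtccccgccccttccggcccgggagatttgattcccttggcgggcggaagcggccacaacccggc
NEK2, which rose, held 2 CCAAT boxes, starting at -66 and -34 from the start site, and neither of the other motifs. MASTL, which fell, held 2 CHR matches, 1 on the reverse strand starting at -248 and 1 on the gene's strand starting at 2 after the start site, and neither of the other motifs. MELK held 0 matches to any of the 3. NEK6 has 5 windows, of which 1 held 2 CCAAT boxes, and NEK9 held 1 E2F core. No matches overlapped. Among 35116 promoter windows of this length, 16.4% held a CHR match, 34.6% a CCAAT box and 13% an E2F core, and the matches are given as a description of these letters only.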

How the data were processed

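Total RNA from 6 samples was labelled with biotin by in vitro transcription, per the labels' protocols. The authors deposited 1 table of log2 signals for 49395 probe sets with 0 missing values. The table was taken as already normalised between arrays because of its nearly equal medians, which do not prove it. The log2 scale was read from the range of the values. The method of background correction, normalisation and summarisation is not given in the sources used here, and no scan date or batch was known. Probe sets naming several genes (1832), none (2473) or controls (102) were left out of the fits. AAPK and DMSO were compared with limma 3.58.1 in R 4.3.3 (group as the only term, two-sided, Benjamini-Hochberg adjustment, threshold 0.05) in 3 fits: over 44988 probe sets, over 18132 genes by their brightest probe set, and over 26856 within-array differences between a gene's other probe sets and its brightest. The log2 values had no detection calls, and 3 arrays per group limit the precision. Fits were tested on simulated data. Alternatives were quantile normalisation, median centring, signal filters, an intensity trend, array weights, the replicate number as a block, other probe set choices and leaving out each array. From each list up to 4 called members with the largest change are named; others named were chosen after their values were seen. The kinases and gene lists were chosen with earlier results of these data known.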

Additional observations from a re-analysis of the deposited data

How the results depend on the processing

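Of the comparisons of member probe sets and genes with their alternatives, 360 kept their side of the threshold, 33 lost the call, 5 gained it and 0 called values changed sign. These counts include the difference between the NEK2 set 11761821_at and the brightest set, with 3 kept and 8 lost over its 11 alternatives. Of the 360, 27 were values not called that changed sign, NEK7 and NEK9 among them. NEK2 on its brightest set, PBK, MASTL and VRK1 kept their calls under all alternatives run; the median signal filter over genes left VRK1 untested. The number of kinase genes called was 4 to 5 with 1 array left out and 5 to 6 otherwise, against 6. The number of genes called ran from 1923 to 2447 with 1 array left out, against 2788. The number of probe set pairs that differed was 847, and 222 to 587 with 1 array left out; fewer samples were then fitted. Whether same-numbered samples were handled together is not stated. Correlations of their deviations from the group means were 0.03, -0.20 and -0.03, against -0.14 to 0.16 for samples with different numbers. With 3 arrays a group these values cannot show whether the samples were paired. With the replicate block the pairs that differed numbered 283, and the call on MELK (adjusted p = 0.0930) was lost; 10 member probe sets were called, as without it. List genes that did not pass on their brightest probe set passed with the opposite sign on others: STK3 (0.15 for the mean of its sets and 0.33 on the set with the largest spread), PPP2CA (-0.17 and -0.32), and, on the set with the largest spread, VRK2 (-0.28), MCM6 (-0.28) and PCNA (-0.32). By construction these are values of other probe sets; any further cause was not tested. For list genes 1689 of 1837 alternative values kept their side of the threshold, 83 of them values not called that changed sign. Of 80 list genes not called on their brightest probe set, 12 had another set called. Median centring moved the median change of all genes to 0.00, against -0.02. This centring removed the calls on MELK, CEP68, CCDC102B, NEDD1 and RPS6KA5 (limma adjusted p = 0.0813, 0.0662, 0.0710, 0.0816 and 0.0564). In the lists for NEK2, for NEK9, NEK6 and NEK7, and for MELK and PBK, 0 genes were then lower. KIF11, EMD and PPP2R2D then passed as higher (limma adjusted p = 0.0356, 0.0365 and 0.0391).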

Other observations

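Within DMSO, replicate 2 gave the lowest signal for 14 of the 21 kinase probe sets and replicate 3 the highest for 10. The 6 NEK2 sets called higher were all among the 14. The same counts were not made over all probe sets, so they are not read as a trait of the kinases. Within AAPK, replicates 1, 2 and 3 were lowest for 5, 9 and 7. The SD over 3 arrays had a median of 0.06 in AAPK and 0.07 in DMSO over the 21 probe sets.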
